A study of Mus musculus with 8 samples.

Results

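Clca3b, Tm4sf1 and Lnx1 are 3 of the 22056 genes in the count tables of N2N1G tumours, and all 3 stood far higher in tumours grown in the brain than in those grown elsewhere. They were chosen for that difference, so the brain comparisons below describe them and carry no test. N2N1G is an established mouse line derived from a neuroendocrine lung tumour, small cell lung cancer. The 8 libraries were 10x Genomics single-cell 3' libraries of allografts of this 1 line, taken 3 weeks after the cells were given. The 2 brain and 3 subcutaneous tumours came from direct injection and the 3 liver tumours from the tail vein, so the route and the site cannot be told apart in comparisons with liver. Living single cells had been sorted by flow cytometry from each tumour, and the strain and the immune state of the hosts are not given in the sources used here.

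Tumour cells were the cells in which UMIs (unique molecular identifiers, 1 per captured transcript) of the reporter eGFP and of Mycl together made up at least 0.2% of all UMIs. They were then split by the summed UMIs of En1, Des, Hoxd9, Hoxd10 and Hoxd11, a set used to part 2 classes of cells. Cells with at least 2 such UMIs are called high cells and the others low cells. This gave 34719 tumour cells, of which 2802 were high and 31917 low. En1 and the Hoxd genes encode homeobox transcription factors of the embryo, and Des encodes desmin, an intermediate filament of muscle.

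Clca3b belongs to the CLCA family, whose proteins are named as regulators of calcium-activated chloride channels and are partly released from the cell. Tm4sf1 encodes a surface protein of the L6 family, relatives of the tetraspanins, and is known from endothelium and from many carcinomas. Lnx1 (ligand of Numb protein X) encodes a ubiquitin ligase with a RING finger and PDZ domains that marks Numb, an inhibitor of Notch signalling, for degradation.

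Clca3b (ENSMUSG00000037033, minus strand) lies at chr3:144822623-144849357 on GRCm38 and Tm4sf1 (ENSMUSG00000027800, minus strand) at chr3:57285611-57301988. Lnx1 (ENSMUSG00000029228, minus strand) lies at chr5:74592447-74702912. All 3 are annotated as protein-coding. The sequences upstream of their annotated starts are shown because the 3 genes were high in the same class of cells. They are RefSeq promoter windows of GRCm38.p6, written 5′ to 3′ on the minus strand, and the part inside the annotated transcript was left out.
Clca3b, chr3:144849358-144849552: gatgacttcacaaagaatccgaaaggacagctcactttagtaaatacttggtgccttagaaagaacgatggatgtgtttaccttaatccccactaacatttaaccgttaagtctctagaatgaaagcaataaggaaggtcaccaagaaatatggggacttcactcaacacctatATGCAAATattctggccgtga
Tm4sf1, chr3:57301989-57302238: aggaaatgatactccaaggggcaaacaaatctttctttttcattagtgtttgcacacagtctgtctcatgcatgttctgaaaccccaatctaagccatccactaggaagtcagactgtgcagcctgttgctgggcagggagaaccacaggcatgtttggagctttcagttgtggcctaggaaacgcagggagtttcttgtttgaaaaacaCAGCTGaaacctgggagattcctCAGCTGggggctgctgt
Lnx1, chr5:74702913-74703153: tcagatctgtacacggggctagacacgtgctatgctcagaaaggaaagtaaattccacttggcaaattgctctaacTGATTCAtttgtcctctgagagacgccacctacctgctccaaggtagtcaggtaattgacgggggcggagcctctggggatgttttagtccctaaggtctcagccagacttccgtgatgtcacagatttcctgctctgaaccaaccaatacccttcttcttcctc
Capitals mark the motif ATGCAAAT in Clca3b, the motif CAGCTG in Tm4sf1 and the motif TGANTCA in Lnx1.

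Motifs were searched on both strands and were chosen after the sequences had been read. ATGCAAAT occurred once upstream of Clca3b and in 1.60% of the first 250 bases of all 32851 RefSeq windows. CAGCTG occurred 2 times upstream of Tm4sf1 and in 13.0% of all windows. TGANTCA occurred once upstream of Lnx1 and in 6.75% of all windows. TAATTA, the core letters that many homeobox proteins bind, was in none of these 3 windows and in 4.84% of all windows. None of these motifs was found in the windows of all 3 genes.

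Levels are given as CPM, the UMIs of a gene per 1000000 UMIs of the cells summed in a library. Over all tumour cells, Clca3b stood at 50.1 and 42.4 CPM in brain replicates 1 and 2, at 1.96, 1.78 and 2.16 CPM in liver replicates 1 to 3, and at 4.03, 1.72 and 2.08 CPM in subcutaneous replicates 1 to 3. Tm4sf1 stood at 48.5 and 73.0 CPM in brain, at 1.94, 1.32 and 1.71 CPM in liver and at 20.9, 4.38 and 2.29 CPM in subcutaneous tumours. Lnx1 stood at 25.2 and 34.7 CPM in brain, at 3.64, 2.63 and 3.19 CPM in liver and at 11.9, 4.03 and 3.80 CPM in subcutaneous tumours. Both brain libraries lay above the 6 others for each gene, as the choice of the genes required. Subcutaneous replicate 1 was the highest library outside the brain for all 3.

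Mean levels in brain were 23.5 times those in liver and 17.7 times those in subcutaneous tumours for Clca3b. For Tm4sf1 the ratios were 36.7 and 6.60, and for Lnx1 they were 9.48 and 4.55. In the edgeR fit over 13926 genes, the log2 fold changes of brain against liver were 4.44 (SE 0.305) for Clca3b, 5.08 (SE 0.929) for Tm4sf1 and 3.13 (SE 0.479) for Lnx1. Against subcutaneous tumours they were 4.16 (SE 0.300), 2.74 (SE 0.827) and 2.20 (SE 0.462). At an edgeR adjusted p under 0.05, 13.2% of the tested genes were higher in brain than in liver and 8.92% higher than in subcutaneous tumours. In either direction the shares were 21.7% and 15.1%. Both contrasts use the same brain libraries. Without subcutaneous replicate 1 the differences from subcutaneous tumours were 4.60 for Clca3b, 4.17 for Tm4sf1 and 2.94 for Lnx1.

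The liver and subcutaneous libraries could be tested, since the choice did not use this contrast. On the log2 scale, liver minus subcutaneous was -0.28 for Clca3b (SE 0.282, edgeR adjusted p = 0.671), -2.34 for Tm4sf1 (SE 0.843, adjusted p = 0.212) and -0.93 for Lnx1 (SE 0.437, adjusted p = 0.311). None of the 3 passed in edgeR or in DESeq2, where the adjusted p were 0.707, 0.0653 and 0.132. After adjustment, 2.83% of all tested genes passed in edgeR in either direction. At an unadjusted p under 0.05 in edgeR 1 of the 3 did, Tm4sf1. The share of all genes at this looser rule is not given here. Subcutaneous replicate 1 carried much of these differences: without it they were 0.16 for Clca3b, -0.91 for Tm4sf1 and -0.20 for Lnx1. For Clca3b the order of liver and subcutaneous tumours therefore turned on this 1 library.

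**Figure D1:**
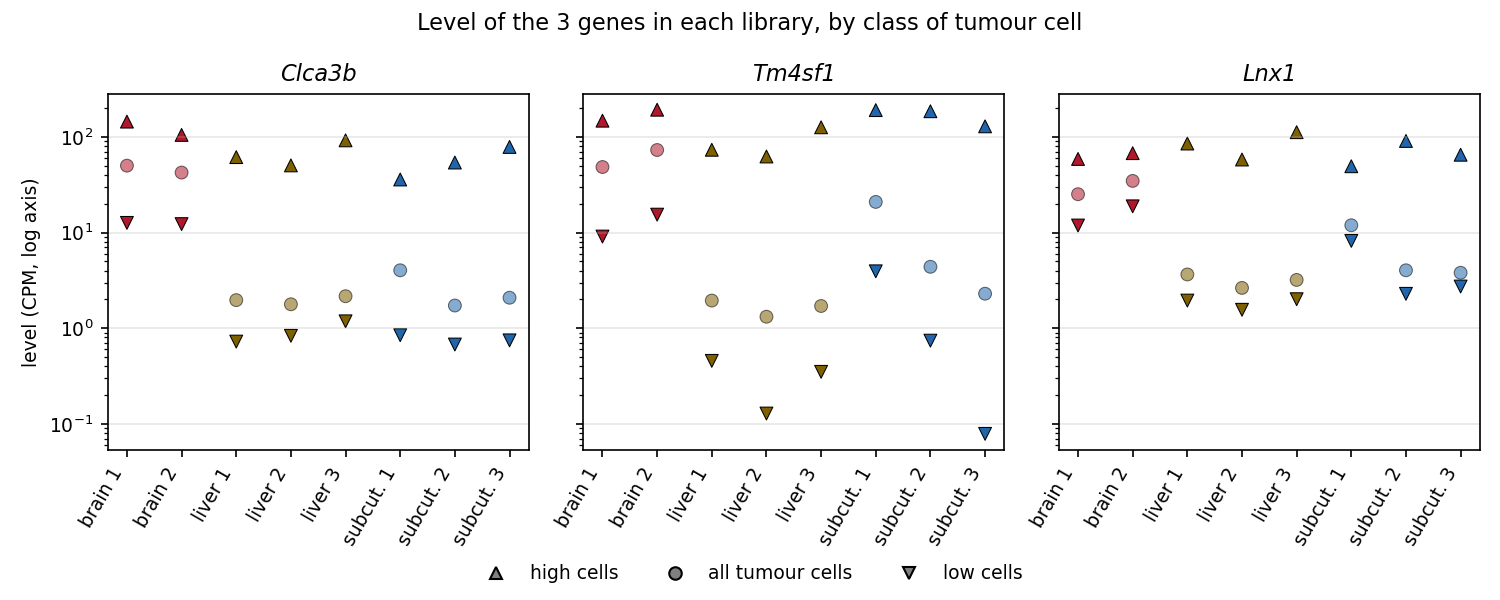
Level of each gene (CPM, log axis) in each of the 8 libraries, with brain in red, liver in brown and subcutaneous in blue. Triangles pointing up are high cells, circles all tumour cells and triangles pointing down low cells; the high cells of all libraries lie between 35.9 and 193 CPM for the 3 genes, while the circles and the low cells separate the brain from the other sites.

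High cells were themselves far more frequent in brain. They made up 26.2% of tumour cells in brain replicate 1 (exact 95% binomial interval 24.4 to 28.0) and 32.1% in brain replicate 2 (30.6 to 33.5). In liver the shares were 2.38%, 1.84% and 1.23%, and in subcutaneous tumours 9.54%, 2.10% and 2.21%. Subcutaneous replicate 1 again stood between the brain libraries and the rest. These intervals cover counting error only. All 10 listed neuroendocrine markers were detected in both classes of each library. Their summed level was lower in high than in low cells in brain, at 3656 against 4960 CPM and 3823 against 5114 CPM. It was also lower in the 3 subcutaneous libraries, at 3706 to 4100.0 CPM against 4976 to 5140 CPM. In liver it was 4773 to 5746 CPM in high and 4765 to 5074 CPM in low cells.

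Within each library, the 3 genes were much higher in high cells than in low cells. Clca3b stood at 145 and 105 CPM in the high cells of the brain libraries, at 61.5, 50.4 and 92.1 CPM in those of liver and at 35.9, 54.0 and 78.6 CPM in those of subcutaneous tumours. In low cells it stood at 12.6 and 12.2 CPM in brain, 0.72, 0.83 and 1.18 CPM in liver and 0.84, 0.67 and 0.74 CPM in subcutaneous tumours. The lowest library of high cells was thus above the highest library of low cells, and the ratio of the classes ran from 8.58 to 105.5 across libraries.

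Tm4sf1 stood at 148 and 193 CPM in the high cells of brain, 73.4, 62.4 and 126 CPM in those of liver and 191, 186 and 129 CPM in those of subcutaneous tumours. In low cells it stood at 9.08 and 15.4 CPM in brain, 0.45, 0.13 and 0.35 CPM in liver and 3.93, 0.74 and 0.08 CPM in subcutaneous tumours. The classes did not overlap for this surface protein either, and the lowest value rests on 4 UMIs.

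Lnx1 stood at 58.8 and 67.7 CPM in the high cells of brain, 85.3, 58.1 and 112 CPM in those of liver and 49.4, 90.8 and 65.1 CPM in those of subcutaneous tumours. In low cells it stood at 11.8 and 18.8 CPM in brain, 1.94, 1.56 and 2.01 CPM in liver and 8.18, 2.29 and 2.72 CPM in subcutaneous tumours. Of the 3 genes, the ubiquitin ligase had the smallest fitted difference between the classes.

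The difference between high and low cells was tested in edgeR on the 16 sums of library and class, with the library as a block. The log2 difference was 4.99 for Clca3b (SE 0.551, adjusted p = 0.000202), 5.93 for Tm4sf1 (SE 0.780, adjusted p = 0.000538) and 3.80 for Lnx1 (SE 0.605, adjusted p = 0.00149). All 3 were higher in high cells in 8 of 8 libraries. The shares of all genes with this order, or with classes that do not overlap, are not given here. The background is broad, as 21.0% of 13685 tested genes were higher in high cells by the same rule, 24.3% lower and 45.3% different in either direction. By size of the increase the members stood at places 81, 24 and 246, where 1318 genes passed with at least a 2-fold increase. Without the brain libraries the differences were 6.10 (SE 0.20, edgeR adjusted p = 1.8e-19), 7.38 (SE 0.626, adjusted p = 0.00037) and 4.67 (SE 0.531, adjusted p = 0.0013). There 18.1% of 13029 genes were higher. The choice of the genes set brain against the liver and subcutaneous libraries, and high cells were more frequent in brain. The p-values of the class difference are therefore not independent of the choice. The 5 genes that define the classes were left out of the shares and places given above.

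The number of split UMIs in a cell gives the same picture in steps. In brain, with the cells of both libraries summed, Clca3b stood at 4.46 CPM in cells with 0 UMIs of the 5 split genes, 78.9 CPM with 1 and 125 CPM with 2. In liver the steps were 0.88, 3.15 and 32.3 CPM, and in subcutaneous tumours 0.69, 4.31 and 44.9 CPM. Cells with 1 split UMI, just under the threshold, were thus near the high cells in brain and near the low cells elsewhere for Clca3b. With 3 UMIs Clca3b reached 137 CPM in brain, 72.9 CPM in liver and 48 CPM in subcutaneous tumours, and the values with 5 or more were 107, 66.6 and 43.6 CPM.

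Tm4sf1 stood at 5.94, 72.6 and 144 CPM with 0, 1 and 2 split UMIs in brain, at 0.20, 10.1 and 13.5 CPM in liver and at 0.72, 39.7 and 119 CPM in subcutaneous tumours. With 5 or more it reached 207 CPM in brain, 88.2 CPM in liver and 216 CPM in subcutaneous tumours. Lnx1 stood at 12.2, 49.4 and 74.6 CPM with 0, 1 and 2 split UMIs in brain, at 1.78, 6.29 and 26.9 CPM in liver and at 3.83, 10.4 and 54.4 CPM in subcutaneous tumours. The liver values with 2 split UMIs rest on 31 cells, with 12, 5 and 10 UMIs of Clca3b, Tm4sf1 and Lnx1.

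**Figure D2:**
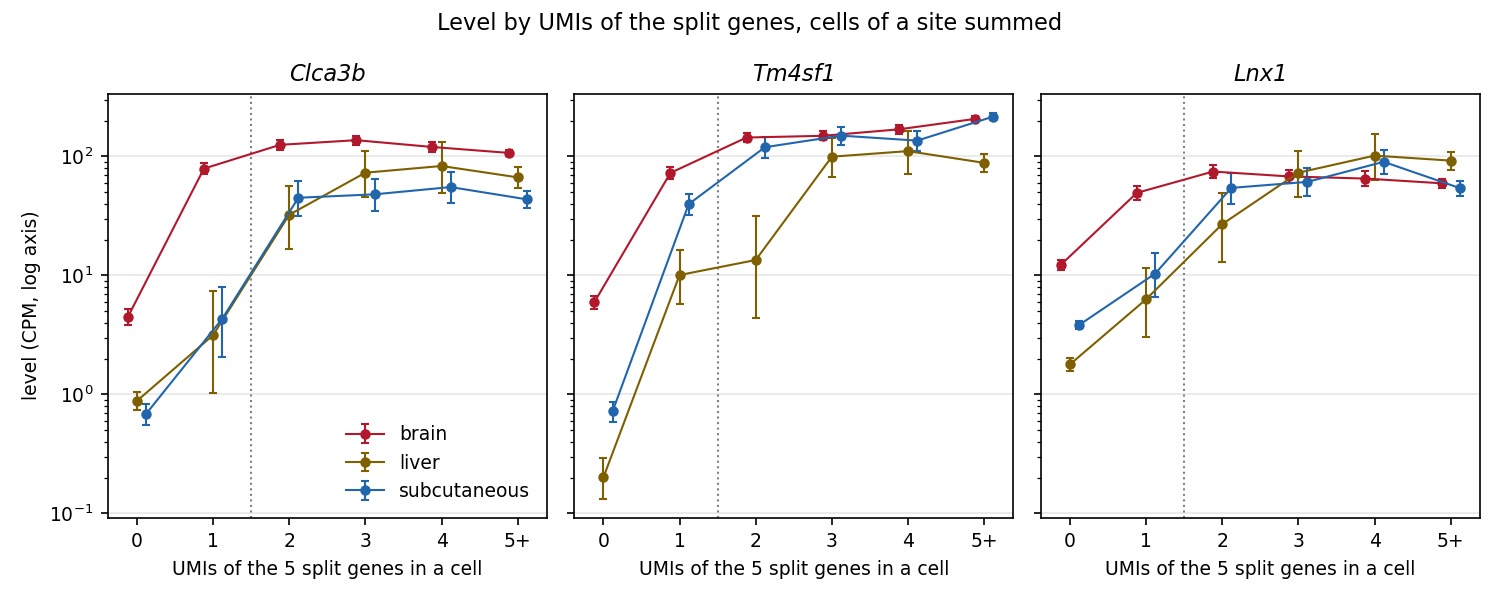
Level of each gene (CPM, log axis) in tumour cells grouped by their UMIs of the 5 split genes, with the cells of a site summed over its libraries and exact 95% Poisson intervals that cover counting error only. The dotted line is the threshold between low and high cells; with 0 split UMIs the brain cells stand above the others, at 4.46, 5.94 and 12.2 CPM for Clca3b, Tm4sf1 and Lnx1.

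With the class held fixed, the sites differed less in high cells and still differed in low cells. In high cells, brain stood above liver by 0.89 on the log2 scale for Clca3b (SE 0.279) and by 1.00 for Tm4sf1 (SE 0.233), while Lnx1 differed by -0.42 (SE 0.233). Against subcutaneous high cells the differences were 1.31 for Clca3b (SE 0.264), 0.05 for Tm4sf1 (SE 0.209) and -0.01 for Lnx1 (SE 0.221). Clca3b was the one member whose high cells were above those of all 6 other libraries in both brain libraries. For Lnx1 the brain libraries lay within the range of the others. In high cells, 3.94% of 9305 tested genes were higher in brain than in liver and 0.903% higher than in subcutaneous tumours.

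In low cells, brain stood above liver by 3.67 on the log2 scale for Clca3b (SE 0.222), 5.19 for Tm4sf1 (SE 1.23) and 2.97 for Lnx1 (SE 0.509). Above subcutaneous low cells it stood by 4.06 (SE 0.226), 3.01 (SE 1.08) and 1.83 (SE 0.490). Both brain libraries were above the 6 others for each gene, and without subcutaneous replicate 1 the difference from subcutaneous low cells was 4.86 for Tm4sf1 and 2.64 for Lnx1. The background of genes higher in brain low cells was 6.58% of 13738 against liver and 4.29% against subcutaneous tumours. In cells with 0 split UMIs the Clca3b differences were smaller, 2.25 against liver and 2.72 against subcutaneous tumours. Tm4sf1 and Lnx1 kept the direction there as well, at 4.75 and 2.65 against liver and 2.78 and 1.5 against subcutaneous tumours.

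How far the low cells of brain include cells whose split UMIs were not captured was not tested beyond this. Brain cells below the tumour rule with macrophage or microglia markers were taken as a background. Whether their UMIs came from free RNA was not tested. Their median depth was 4171 UMIs per cell, against 7972 and 8409 UMIs in the tumour cells of brain replicates 1 and 2. In 1079 brain cells below the tumour rule that carried macrophage or microglia markers, Clca3b stood at 0.38 CPM and Lnx1 at 0 UMIs, which allows up to 3 UMIs in 5228975. Tm4sf1 stood at 6.50 CPM in these cells, on 34 UMIs that were found in 1.67% of them. In the low tumour cells of the brain libraries it stood at 9.08 and 15.4 CPM. Tumour cells with 0 split UMIs stood at 4.89 and 6.58 CPM of Tm4sf1 in brain replicates 1 and 2. Macrophage-marker cells of the same replicates stood at 6.83 and 5.32 CPM, on 28 and 6 UMIs. The tumour cells of replicate 1 were thus below its macrophage-marker cells and those of replicate 2 slightly above. Tm4sf1 of these tumour cells was therefore not told apart from that of the macrophage-marker cells.

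One contrast in high cells did not involve the brain, and it was added after the data were seen. Tm4sf1 was lower in the high cells of liver than in those of subcutaneous tumours, by -0.95 on the log2 scale (SE 0.224, edgeR adjusted p = 0.0390). The 3 liver libraries, at 62.4 to 126 CPM, lay below the 3 subcutaneous libraries, at 129 to 191 CPM. Clca3b differed by 0.42 (SE 0.293, edgeR adjusted p = 0.550) and Lnx1 by 0.41 (SE 0.231, adjusted p = 0.411) in the same contrast. The Tm4sf1 call is a weak one: the direction held throughout, but the threshold was lost without liver replicate 1 (adjusted p = 0.227), liver replicate 2 (0.197), subcutaneous replicate 1 (0.0631) or subcutaneous replicate 2 (0.0708) in the edgeR fits, and under 8 other alternatives. By this rule 2.62% of the genes differed in either direction and 1.33% were lower in liver. Fibroblast markers, summed, stood at 22.8, 242 and 172 CPM in the high cells of liver replicates 1 to 3 and at 29.4 to 51.6 CPM in those of subcutaneous tumours. Smooth muscle and pericyte markers stood at 0.99, 161 and 198 CPM in liver and at 0.82 to 28.5 CPM in subcutaneous tumours. Without cells with host markers, Pdgfra counted among them, the difference was -0.87 (edgeR adjusted p = 0.107).

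Low cells of brain carried more of the 3 genes, and the gap between the classes was smaller there. In a fit with 1 class difference per site, Clca3b differed between high and low cells by 3.27 on the log2 scale in brain (SE 0.156), 6.06 in liver (SE 0.229) and 6.09 in subcutaneous tumours (SE 0.202). Brain minus the mean of the other 2 was -2.80 (SE 0.210). In edgeR, 3.68% of all genes were called for this contrast in either direction and 2.38% in this one. The levels that chose the genes enter it, so it is a description here and carries no test. The gap was narrower in both brain libraries, with class ratios of 11.5 and 8.58, than in the 6 others, with ratios of 42.5 to 105.5.

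For Tm4sf1 the class differences were 3.78 in brain (SE 0.605), 7.93 in liver (SE 1.08) and 6.89 in subcutaneous tumours (SE 0.662), and the same contrast was -3.63 (SE 0.879). For Lnx1 they were 2.03 (SE 0.555), 5.35 (SE 0.678) and 3.92 (SE 0.572), with a contrast of -2.60 (SE 0.692). The Lnx1 ratio of subcutaneous replicate 1, 6.04, was close to those of brain, 4.97 and 3.60, and the other 5 libraries had 23.9 to 55.9. Without subcutaneous replicate 1 the contrasts were -4.41 for Tm4sf1 and -3.11 for Lnx1. Between liver and subcutaneous tumours the class difference passed for no member, with edgeR adjusted p of 1.0 for Clca3b, 0.870 for Tm4sf1 and 0.622 for Lnx1, and none at an unadjusted p under 0.05, while 1.24% of all genes passed. That share is after adjustment, and the comparison was run in edgeR alone.

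**Figure D3:**
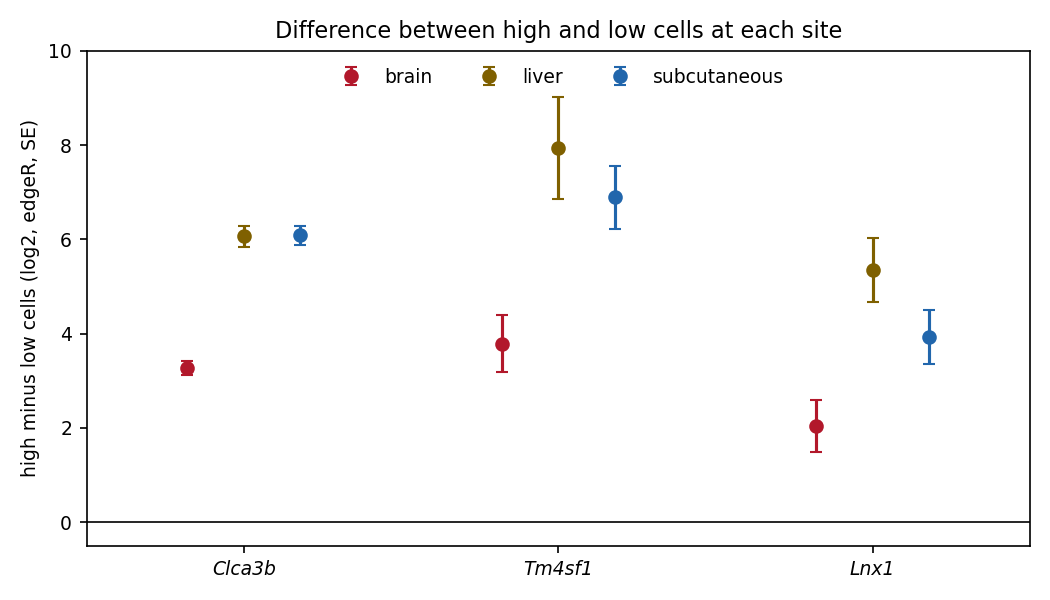
Log2 difference between high and low cells of each gene at each site, with the SE of the edgeR fit over 16 sums. The brain point is the lowest of the 3 for each gene, at 3.27 for Clca3b, 3.78 for Tm4sf1 and 2.03 for Lnx1.

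To set aside the share of high cells, each library was given the same share, 9.83% of UMIs in high cells, which is the mean over the libraries. At this share Clca3b stood at 23.5 ± 2.99 CPM in brain (SD, n = 2), 7.51 ± 2.31 CPM in liver (SD, n = 3) and 6.20 ± 2.07 CPM in subcutaneous tumours (SD, n = 3). The ratio of brain to liver fell from 23.5 to 3.13 and that of brain to subcutaneous tumours from 17.7 to 3.79. Both brain libraries still lay above all others for Clca3b.

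Tm4sf1 at the equal share stood at 27.8 ± 7.13 CPM in brain (SD, n = 2), 8.87 ± 3.40 CPM in liver (SD, n = 3) and 18 ± 4.84 CPM in subcutaneous tumours (SD, n = 3). Its ratios were 3.13 and 1.54 in place of 36.7 and 6.60. Subcutaneous replicate 1, at 22.3 CPM, came next to brain replicate 1, at 22.7 CPM, so that these 2 libraries were no longer apart.

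Lnx1 at the equal share stood at 20.03 ± 5.04 CPM in brain (SD, n = 2), 10.03 ± 2.86 CPM in liver (SD, n = 3) and 10.7 ± 1.70 CPM in subcutaneous tumours (SD, n = 3). Its ratios were 2.00 and 1.87, the former down from 9.48. The lowest brain library, at 16.5 CPM, was above the highest of the others, at 12.8 CPM. High cells held 80.5% to 82.0% of the Clca3b UMIs, 85.8% to 86.6% of the Tm4sf1 UMIs and 63.4% to 66.3% of the Lnx1 UMIs of the brain libraries.

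**Figure D4:**
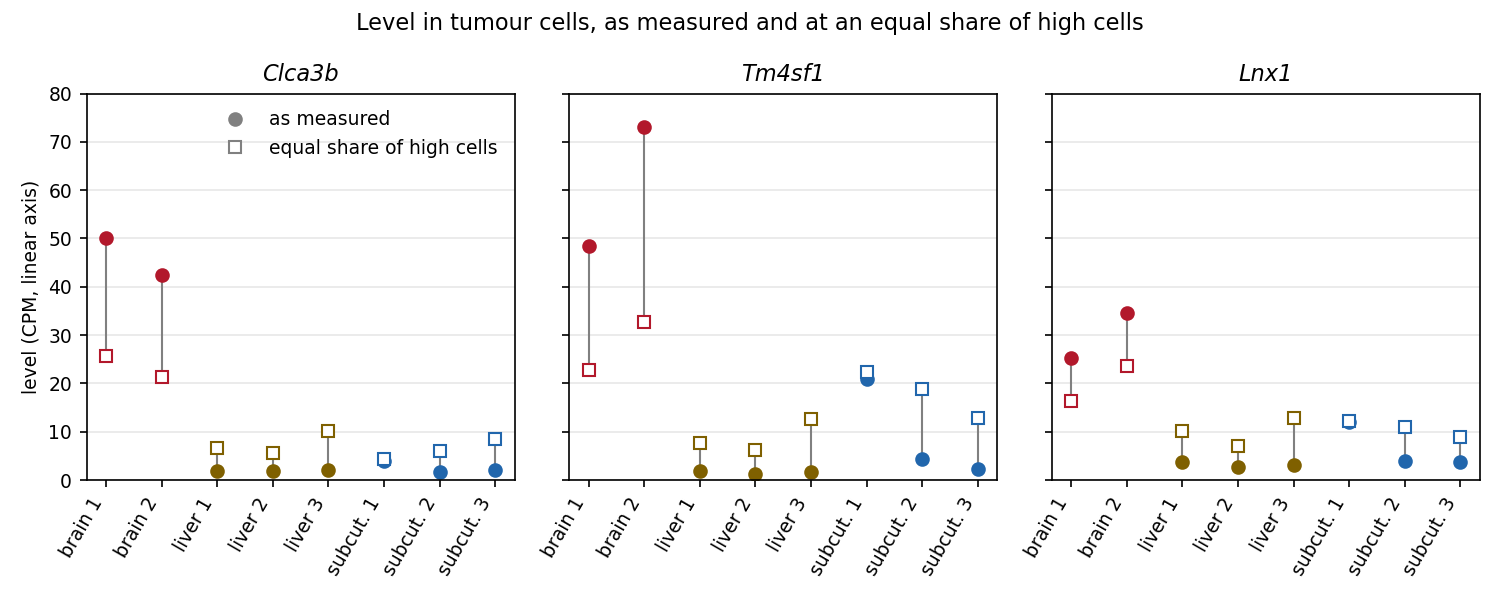
Level of each gene in all tumour cells (CPM, linear axis from 0) as measured, filled circles, and after each library was given the same share of high cells, open squares, for brain in red, liver in brown and subcutaneous in blue. The brain values fall and the others rise; for Tm4sf1 the square of subcutaneous replicate 1, at 22.3 CPM, meets that of brain replicate 1, at 22.7 CPM.

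Single cells showed the same order. In high cells, at least 1 UMI of Clca3b was seen in 61.8% and 49.7% of cells in brain, in 40.3% to 41.4% in liver and in 22.2% to 34.1% in subcutaneous tumours. With each cell thinned to 3000 UMIs, the shares were 34.3% and 27.4% in brain, 19.7% to 25.8% in liver and 12.1% to 21.0% in subcutaneous tumours. In low cells the thinned shares were 3.12% and 3.65% in brain and at most 0.300% elsewhere. Both ways of counting put the brain libraries first in each class.

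Tm4sf1 had a UMI in 59.6% and 66.8% of brain high cells, 37.7% to 51.7% of liver high cells and 46.2% to 64.9% of subcutaneous high cells. After thinning, the ranges were 32.9% to 39.1%, 21.1% to 34.5% and 27.6% to 41.0%, which overlap. Lnx1 had a UMI in 37.4% and 43.1% of brain high cells, 42.9% to 58.2% of liver high cells and 33.6% to 43.2% of subcutaneous high cells. After thinning the Lnx1 ranges, 15% to 17.9%, 17.1% to 25.9% and 14.9% to 22.1%, overlapped too. As background, thinned brain cells with macrophage or microglia markers had a UMI of Tm4sf1 in 1.07% and 2.45% and of Lnx1 in 0 of 561 and 0 of 163 cells, which allows shares of up to 0.535% and 1.84%.

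Most high cells of brain carried at least 1 of the 3 genes, 89.3% and 89.6% without thinning, and 14.2% and 15.4% carried all 3. In low cells of brain the share with any of them was 15.1% and 21.2%, and in those of liver and subcutaneous tumours it ran from 2.75% to 9.19%. Within the high class of brain, Tm4sf1 was not more frequent in cells with Clca3b. At 3000 UMIs, Tm4sf1 was seen in 32.1% of brain replicate 1 high cells with Clca3b and in 33.3% of those without, and in brain replicate 2 in 35.5% and 40.5%. Lnx1 was seen in 16.7% with and 14.1% without Clca3b in brain replicate 1, and in 22.0% and 16.4% in brain replicate 2. Elsewhere the pattern varied by library. Tm4sf1 was seen in 36% of high cells with and 19.4% without Clca3b in liver replicate 1, in 46.7% and 14.8% in liver replicate 2, in 48.9% and 39.9% in subcutaneous replicate 1 and in 18.2% and 30.1% in subcutaneous replicate 3. These shares rest on 15 to 47 cells with Clca3b per library. In the low cells of brain Tm4sf1 and Clca3b were seen together more often, with Tm4sf1 in 15.7% and 25.3% of cells with Clca3b and in 1.89% and 3.21% of those without.

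Cells below the tumour rule, 2078 in all, held host cells and also cells with neuroendocrine markers. There were 44 of the latter in brain, with Lnx1 at 30.7 CPM on 7 UMIs. Each cell was given the marker list with the most markers detected, where at least 3 were. Tm4sf1 was high in brain cells with endothelial markers, at 880 CPM over 70 cells with a UMI in 67.1% of them, and stood at 122 CPM in 66 subcutaneous cells with fibroblast markers. Clca3b had 1 UMI and Lnx1 had 0 UMIs in the endothelial cells, and both had 0 UMIs in the fibroblast cells. In 21 brain cells with astrocyte markers Tm4sf1 stood at 268 CPM on 16 UMIs, but a UMI was seen in only 14.3% of these cells. Clca3b and Lnx1 had 0 UMIs in them. The 3 genes thus parted outside the tumour, where the surface protein alone was found at a high level in host cells.

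**Figure D5:**
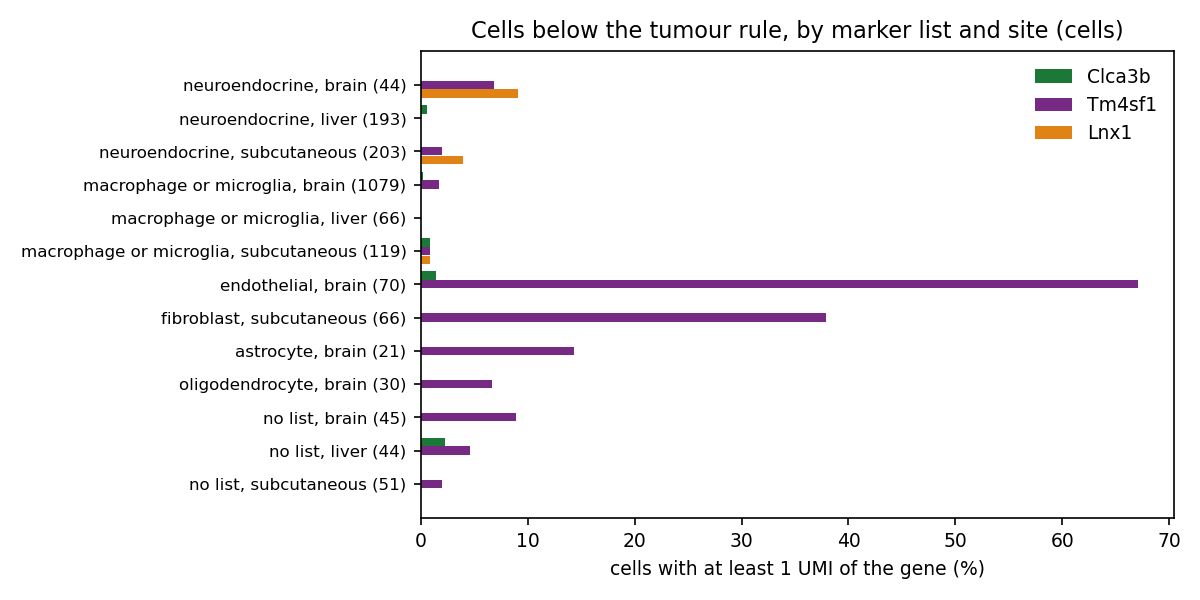
Share of cells with at least 1 UMI of each gene (%, linear axis from 0) among cells below the tumour rule, by the marker list they carried and the site, for groups of at least 20 cells, with the number of cells in brackets. Tm4sf1 reaches 67.1% of endothelial-marker cells of brain and 37.9% of fibroblast-marker cells of subcutaneous tumours, while Clca3b and Lnx1 stay below 10% in each group.

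Endothelial markers themselves were low in the tumour cells. Their 10 genes summed to 6.44 to 11.7 CPM in the high cells of brain, where Tm4sf1 stood at 148 and 193 CPM, and to 9.84 to 36.6 CPM in the low cells. Macrophage and microglia markers moved with the site, at 91.7 to 418 CPM in the high cells and 71.3 to 537 CPM in the low cells of brain, against 2.09 to 44.4 CPM over both classes elsewhere. The brain cells that carry those markers had 0.38 CPM of Clca3b and 0 UMIs of Lnx1. With all tumour cells of 2 or more macrophage, endothelial, smooth muscle or fibroblast UMIs left out, the log2 differences of brain against liver were 4.61 for Clca3b, 5.25 for Tm4sf1 and 3.25 for Lnx1, as large as with them. This left 267 of 633 high and 878 of 1785 low cells in brain replicate 1, and 1144 of 1302 and 2564 of 2758 in brain replicate 2. The fibroblast list holds Pdgfra, which was itself higher in high tumour cells.

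Of the CLCA family, 6 genes other than Clca3b were in the tables and 2 passed the filter on low counts. Clca3a1 and Clca3a2, the neighbours of Clca3b on the same strand, were both higher in high cells and higher in brain against either site. Of all genes, 21.0% were higher in high cells, 13.2% higher in brain than in liver and 8.92% higher than in subcutaneous tumours. Clca3a1 stood at 1.65 to 1.75 CPM in brain, 0.15 to 0.29 CPM in liver and 0.13 to 0.55 CPM in subcutaneous tumours, and Clca3a2 rests on 47 UMIs in all tumour cells. Over all libraries, Clca1 had 3 UMIs and Clca2, Clca4a and Clca4b had 0 UMIs. Reads could in principle be shared between the copies. The longest Clca3b transcript was identical to that of Clca3a2 at 80.5% of aligned bases and to that of Clca3a1 at 82.8%, and 0 of 451 windows of 50 bases in its last 500 bases recurred in either.

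Among 7 other calcium-activated chloride channel genes, 3 were tested, and Ttyh2 and Ttyh3 were lower in high cells, where 24.3% of all genes were. The median over those tested was -0.23 on the log2 scale, against -0.03 over all genes. None of them passed between sites, and Ano1, the channel best known in this class, had 62 UMIs in all tumour cells. No listed channel was called higher in brain.

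Of 4 relatives of Tm4sf1 in the L6 family, Tm4sf4 alone was tested in the class comparison, where it passed on 23 UMIs. It had 7, 3 and 6 UMIs in the low cells of the liver libraries and at most 2 in the high cells of any library. Tm4sf5 had 2 UMIs and Tm4sf19 and Tm4sf20 had 0 UMIs. Of 16 tetraspanins and other partners of Tm4sf1, 14 were tested. In high cells, Cd9, Cd81 and Itgb5 were higher and Cd63, Cd82, Cd151, Tspan3, Tspan7, Sdcbp and Itga6 lower, with a median of -0.20 on the log2 scale. Over all genes 21.0% were higher and 24.3% lower. Cd9, a tetraspanin of many epithelia, stood at 679 to 1149 CPM in high and 404 to 694 CPM in low cells. Between sites, Itgb5, an integrin subunit, was higher in brain against both others, and Cd151 was lower against both. Against liver, Cd82 was also higher and Itga6 lower. Of all genes, 13.2% were higher and 8.57% lower than in liver, and 8.92% and 6.13% than in subcutaneous tumours. Itgb5 stood at 6.55 and 2.25 CPM in brain replicates 1 and 2, against 0.10 to 0.60 CPM in the 6 others. It stood at 5.36 CPM in high and 7.02 CPM in low cells of brain replicate 1, and at 3.74 and 1.53 CPM in those of brain replicate 2.

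Of 3 relatives of Lnx1, none was called between the classes, and Lnx2, the closest, was lower in brain against both sites, at 2.86 and 2.92 CPM against 3.98 to 5.22 CPM elsewhere. Of all genes, 8.57% were lower in brain than in liver and 6.13% lower than in subcutaneous tumours. Of 11 Numb and Notch genes and other Lnx1 partners, 10 were tested between the classes. Numbl, Notch2 and Notch3 were higher in high cells and Cxadr and Eps15 lower, and Notch3 rests on 21 UMIs in all tumour cells. The median was -0.14 on the log2 scale, where 21.0% of all genes were higher and 24.3% lower. Numb itself, the named target of the ligase, stood at 3.33 to 5.67 CPM in brain and at 3.66 to 5.32 CPM elsewhere and passed in no contrast. Between sites, 9 of the partners were tested. Notch2, a Notch receptor, was higher in brain against both sites, at 3.80 to 4.20 CPM in brain, 0.67 to 1.21 CPM in liver and 1.16 to 2.37 CPM in subcutaneous tumours. Cxadr was lower in brain against both sites, at 30.5 to 32.3 CPM against 41.2 to 48.9 CPM elsewhere, and Eps15 was lower against liver. At the same threshold 13.2% and 8.92% of all genes were higher in brain against liver and against subcutaneous tumours, and 8.57% and 6.13% lower.

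The genes around the members were read in the same fits. Of the 5 protein-coding genes on each side, 2 of 6 tested neighbours of Clca3b were higher in high cells, where 21.0% of all genes were, and these were the paralogs Clca3a1 and Clca3a2. Near Tm4sf1, 2 of 6 were higher, Tm4sf4 and Wwtr1, both at under 60 UMIs. Near Lnx1, 2 of 9 were higher, Spata18 and Pdgfra, and Chic2, the next gene upstream of Lnx1, stood at 133 to 192 CPM in high and 126 to 172 CPM in low cells. Pdgfra, a growth factor receptor of mesenchyme and glial precursors, stood at 11 to 28.1 CPM in high and at 0.09 to 2.99 CPM in low cells. Between sites, 4 of 9 tested neighbours of Lnx1 were higher in brain than in liver, Spata18, Rasl11b, Pdgfra and Kdr, where 13.2% of all genes were. Against subcutaneous tumours 2 of 9 were higher, Spata18 and Pdgfra, where 8.92% of all genes were. Around Clca3b the same 2 paralogs of 6 tested genes were higher in brain against either site, and around Tm4sf1 0 of 5 were called at an edgeR adjusted p under 0.05. At an unadjusted p under 0.05, 1 of those 5, Wwtr1, passed against liver and 0 against subcutaneous tumours. The shares of all genes at this looser rule are not given here.

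Other genes followed the members closely over the 16 sums of library and class. By the Pearson correlation of log2(CPM + 1) among 8084 genes, those most like Clca3b were Edn3, Pcsk1, Foxf1, Prune2 and Upp1, with r from 0.979 to 0.984. Those most like Tm4sf1 were Gpx7, Pcsk1, Fgl2, Foxd1 and P3h1, with r from 0.986 to 0.991, and those most like Lnx1 were Dnajc12, Lrpprc, Dio1, Edn3 and Fgl2, with r from 0.984 to 0.992. Edn3 encodes an endothelin, Pcsk1 a prohormone convertase, and Foxf1 and Foxd1 forkhead transcription factors. The members' r with each other was 0.966 for Clca3b and Tm4sf1, 0.963 for Clca3b and Lnx1 and 0.978 for Tm4sf1 and Lnx1. These sums share libraries and depth, and the 2 classes dominate the values, so r describes the pattern and is no test.

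The threshold that defines tumour cells had cells with the members on both sides of it. Brain cells with 0.15% to 0.2% of their UMIs from eGFP and Mycl, 48 cells just outside, had 0 UMIs of Clca3b, 5 of Tm4sf1 and 5 of Lnx1. The 62 brain cells with 0.2% to 0.25%, just inside, had 4, 15 and 8. Tumour cells had median depths of 7972 to 10542 UMIs per library, and 21689091 to 62047017 UMIs per library entered the sums. The shallowest high sums were those of liver replicate 3, at 499479 UMIs, and subcutaneous replicate 3, at 890675 UMIs. Of 37556 distinct cell barcodes, 882 occurred in more than 1 library and 1 in all 8, at most 1.16% of the smaller library of any pair. The labels do not say whether the replicates came from separate mice, so the tests measure the spread between these libraries.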

How the data were processed

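The members, the gene lists and the alternatives were chosen with earlier results of these data known, and the named genes are the 3 members, their families, partners, 5 neighbours on each side and 5 most alike genes. The deposited files hold UMI counts per gene and cell, which per the file headers are whole numbers in Cell Ranger 3.0.0 matrix format; the submitters' processing notes name Cell Ranger, STAR and the build mm10. The 38460 deposited cells held 372293350 UMIs. Filters of at least 500 genes per cell and no more than 10% mitochondrial UMIs left 36797 cells, and doublets were not removed. UMIs were summed per library and class. edgeR 4.0.16 was run with TMM factors, filterByExpr and robust quasi-likelihood F tests, in R 4.3.3, on 13926 genes for tumour cells, 13738 for low cells, 9305 for high cells and 13685 for the classes within libraries, with the 5 split genes left out of these numbers. The SE is the size of the log2 fold change divided by the root of F, and p-values were adjusted over all genes of a fit by the Benjamini-Hochberg method at 0.05. The fits were tested on simulated data.

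Of the 22056 gene identifiers, 21952 were placed on GENCODE M21. Cells were thinned to 3000 UMIs where stated, which left out 48 to 180 tumour cells per library. Alternatives were other size factors, DESeq2 1.42.0, no filter on genes, other tumour rules, splits and cell filters, thinned cells, cells without host markers, the replicate number as a block, and leaving out each library. Floors are 3 UMIs.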

Additional observations from a re-analysis of the deposited data

Results flagged for a closer look

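The gap between high and low cells of Clca3b was set apart by the interaction term of the edgeR fit: brain minus the mean of liver and subcutaneous tumours was -2.80 on the log2 scale (SE 0.210). Clca3b was chosen for its level in brain, and that level enters the difference, so the value describes these libraries and is no independent evidence. Both brain libraries had smaller class ratios than the 6 others. Over the alternatives other than leaving out a library, the value ran from -3.37 to -0.91, and it was smallest when the classes were parted at 1 split UMI. With low cells limited to those with 0 split UMIs it was -1.43. Leaving out any 1 library kept it between -2.98 and -2.61.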

How the results depend on the processing

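Of 411 member values under alternatives other than leaving out a library, 386 kept their direction and side of the threshold or moved by less than the spread between libraries. The class differences of the 3 members within libraries passed in each alternative run. The alternatives for high cells, low cells with 0 split UMIs and the class comparison without brain were added after seeing the data. Parting the classes at 1 split UMI gave Clca3b 2.25 and 2.72 in low cells of brain against liver and subcutaneous tumours, as did low cells with 0 split UMIs, and 3 UMIs gave 4.30 and 4.38. Thinned cells gave 4.38 against liver. In high cells of brain against liver, the 1-UMI split gave 1.51 for Clca3b, 1.46 for Tm4sf1 and 0.19 for Lnx1, and against subcutaneous tumours 0.38 for Lnx1. Thinned cells gave 0.57 for Tm4sf1 there. The Tm4sf1 difference of liver against subcutaneous high cells lost the threshold without the 5% deepest cells (-0.87), without host-marker cells (-0.87), with splits at 1 UMI (-1.18), at 3 UMIs (-0.86), by En1 and Des (-1.05) or by Hoxd genes (-1.05), in thinned cells (-0.70) and with the replicate block (-0.96). The brain minus other contrast of the class difference, a description since the genes were chosen for brain, crossed the edgeR or DESeq2 threshold for Tm4sf1 without the gene filter (-3.63) and in DESeq2 (-4.22), and for Lnx1 in thinned cells (-3.05), without the gene filter (-2.60) and in DESeq2 (-2.73). The causes were not tested.

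Counts of called genes moved by over 1.5 times as follows. With the replicate block they were 1376 for brain against subcutaneous tumours (2096 without), 229 for liver against subcutaneous (394) and, in low cells, 916 for brain against liver (1455) and 503 against subcutaneous (1014). Correlations of same-numbered libraries ran from -0.04 to 0.40, and those of other pairs from -0.38 to 0.37. These overlapping ranges do not settle whether the numbers pair the libraries. A fit of only 2 sites called 728 for brain against subcutaneous, and DESeq2 called 1050 for liver against subcutaneous and 1628 for low cells of brain against subcutaneous. In high cells, brain against liver gave 754 genes, and 1255 with the 1-UMI split, 109 thinned and 1329 unfiltered. Brain against subcutaneous gave 242, and 417 with the 1-UMI split, 143 with 3 UMIs, 74 thinned and 661 unfiltered, and liver against subcutaneous gave 244, and 136 without host-marker cells, 47 thinned and 574 unfiltered. The class comparison gave 3867 thinned against 6203, and its brain contrast 840 with the 1-UMI split and 941 unfiltered against 503.

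Leaving out 1 library at a time gave these ranges. Brain against liver in tumour cells had 1107 to 4552 genes, Clca3b 4.34 to 4.56, Tm4sf1 4.76 to 5.37 and Lnx1 2.88 to 3.36. Brain against subcutaneous tumour cells had 383 to 4749 genes, Clca3b 3.95 to 4.60, Tm4sf1 2.30 to 4.17 and Lnx1 1.94 to 2.94. Liver against subcutaneous tumour cells had 33 to 1024 genes, Clca3b -0.50 to 0.16, Tm4sf1 -2.80 to -0.91 and Lnx1 -1.21 to -0.20. Brain against liver in low cells had 204 to 2942 genes, Clca3b 3.53 to 3.88, Tm4sf1 4.77 to 5.58 and Lnx1 2.61 to 3.27. Brain against liver in high cells had 251 to 1338 genes, Clca3b 0.66 to 1.11, Tm4sf1 0.79 to 1.25 and Lnx1 -0.62 to -0.25. Brain against subcutaneous low cells had 96 to 3482 genes, Clca3b 3.98 to 4.14, Tm4sf1 2.43 to 4.86 and Lnx1 1.46 to 2.64. Brain against subcutaneous high cells had 96 to 991 genes, Clca3b 1.01 to 1.58, Tm4sf1 -0.16 to 0.24 and Lnx1 -0.24 to 0.24. Liver against subcutaneous high cells had 36 to 416 genes, Clca3b 0.11 to 0.68, Tm4sf1 -1.21 to -0.77 and Lnx1 0.17 to 0.65. High against low cells had 5433 to 5998 genes, Clca3b 4.78 to 5.50, Tm4sf1 5.64 to 6.59 and Lnx1 3.58 to 4.22. The brain contrast of the class difference had 160 to 1966 genes, Clca3b -2.98 to -2.61, Tm4sf1 -4.41 to -3.39 and Lnx1 -3.11 to -2.26. Depth limits the high cells of liver, which held at most 98 cells per library.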
